A study of Drosophila melanogaster with 90 samples.

Results

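Mated females of the Netherlands line, an inbred line of Drosophila melanogaster, were compared with mated females of 4 other inbred lines named Beijing, Ithaca, Tasmania and Zimbabwe. Libraries were chosen by the female line and the mating status in their labels, not by a measured value. They were 13 libraries of Netherlands females and 52 libraries of the other lines (13 Beijing, 9 Ithaca, 15 Tasmania and 15 Zimbabwe), out of 89 libraries in the count table. The 13 came from Netherlands females paired with Beijing (2), Ithaca (2), Netherlands (3), Tasmania (3) and Zimbabwe (3) males. In the names of crosses the female comes first. A total of 9 mated libraries were left out, among them replicate 2 of Netherlands x Beijing and of Netherlands x Ithaca, and no Ithaca x Zimbabwe library was used. Virgins of the same lines, 3 libraries a line, served as a check.

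All groups were unmodified inbred flies of the Global Diversity Lines, kept at 25 °C on yeast and glucose food and aged 3 to 5 days as virgins. The submitters describe the Zimbabwe line as a recent migrant to Africa. Each mated female had 1 mating with a male of one of the 5 lines and was frozen whole between 5 and 6 h after it began. A library pooled 5 to 10 females, and the replicates of a group came from different bottles. A line is a single inbred genotype, so the p-values below measure the spread between libraries of these 5 genotypes, not between flies of 5 populations.

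An inbred line carries a fixed set of alleles, and lines from distant places differ in the regulatory and coding variants that they fixed. In the fly, families of tandem gene copies that act at the border with food, microbes and toxins, such as digestive proteases, lysozymes, cytochrome P450 enzymes, glutathione S-transferases (GSTs) and UDP-glycosyltransferases (UGTs), are known for differing widely between strains. Whole females hold gut, fat body, nervous system, a large ovary and the reproductive tract that stores sperm, so a whole-body level adds all of them.

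Values are CPM, a gene's counts per 1000000 counts of its library after TMM scaling. Differences are the mean log2 level of the 5 Netherlands crosses minus the mean log2 level of the 4 other lines. Their standard errors come from edgeR's quasi-likelihood fit. The mean of the other lines is this mean of logs throughout. A line with very low values can therefore move a difference far from the log2 ratio of mean CPM. Total counts were 7874419 to 20721225 (median 15373563) in the 13 Netherlands libraries and 4407704 to 38799730 in the other 52. All 10 markers of adult females, from the yolk proteins Yp1, Yp2 and Yp3 to the germline genes osk, nos and vas, had a median of at least 1 CPM in Netherlands libraries. The 18 testis markers summed to 27.3 to 46.4 CPM in mated Netherlands libraries, 17.4 to 49.7 in the other mated libraries and 21.6 to 48.4 in virgins, with nearly all of it from CG31999. The 8 male seminal fluid markers summed to 114 to 248 CPM in mated Netherlands libraries and 84.9 to 210 in the others, nearly all from Est-6, which females also express. In whole-body RNA, fewer cells of a type and less RNA per cell cannot be told apart.

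Of 10663 genes tested, 3575 (33.5%) differed between mated Netherlands females and the mean of the other lines at an adjusted p under 0.05. Of these, 1707 (16.0%) were higher and 1868 (17.5%) lower in Netherlands females. A difference of at least 2-fold was called for 533 genes (5.00%), with 214 (2.01%) higher and 319 (2.99%) lower. Single lines gave 4173 calls against Beijing (39.1%), 3473 against Ithaca (32.6%), 3585 against Tasmania (33.6%) and 3427 against Zimbabwe (32.1%).

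A mean over 4 lines can be moved by a single line, so a gene was counted as set apart only if it was called against the mean and against each of the 4 lines with the same sign. By that rule Netherlands females were set apart in 551 genes (5.17%), with 243 (2.28%) higher and 308 (2.89%) lower. The count was 312 without replicate 1 and 269 without replicate 3 of every group, and 869 with the gene length slope described below as a covariate. Of the 533 genes with a 2-fold difference from the mean, 196 were set apart and 337 were not. Taken from the nearest line, the gap was at least 2-fold for 41 higher and 69 lower genes. The nearest line was Zimbabwe for 168 of the 551 genes, Beijing for 155, Tasmania for 124 and Ithaca for 104. The same rule in the same fit set apart 1268 genes in Beijing, 921 in Ithaca, 748 in Zimbabwe and 728 in Tasmania females, a description in which all lines share libraries. In 62 genes (0.581%) no Netherlands library overlapped any of the other 52, with 27 (0.253%) above and 35 (0.328%) below them.

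The genes highest above every other line encoded membrane proteins, glycan enzymes, a transporter and several proteins of unknown role. CG10154, the gene with the widest gap among them, had 11.3, 19.7 and 32.8 CPM (lowest, median and highest) in the 13 Netherlands libraries, against 0, 0.131 and 1.49 CPM in the other 52. Every Netherlands library exceeded every other library by several-fold, and 14 of the other 52 had no read. The difference was 7.18 ± 0.19 (log2, SE; edgeR adjusted p = 1.12e-36).

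Some of these genes belong to the pickpocket family, which encodes sodium channels of the degenerin and epithelial type. CG44152, named ppk18 in the reference annotation, had 5.87, 8.80 and 11.3 CPM in Netherlands libraries, against 0, 0.104 and 0.722 CPM in the others (6.09 ± 0.18 on the log2 scale, edgeR adjusted p = 5.55e-34). For ppk16 the values were 3.42, 10.6 and 17 CPM in Netherlands libraries and 0, 0.165 and 1.69 CPM in the others (5.67 ± 0.21). Neither gene overlapped between the groups. The neighbouring ppk11, named after its values were seen, had 0, 3.82 and 7.34 CPM in Netherlands libraries and at most 0.736 CPM in the others (5.83 ± 0.30), so that its groups overlapped at the low end.

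CG34411, named Lgr4 in the reference and known as a leucine-rich repeat receptor coupled to G proteins, had 56.1, 66 and 96.6 CPM in Netherlands libraries, against 0.854, 1.69 and 7.87 CPM in the others. The groups were far apart, with a difference of 5.21 ± 0.13 (log2, edgeR adjusted p = 5.31e-39). FucTA, a fucosyltransferase that adds fucose to the core of N-glycans, had 36.2, 52.7 and 86.3 CPM in Netherlands libraries and 2.19, 4.23 and 12.6 CPM in the others (3.66 ± 0.10). Its values did not overlap either, and Beijing was the nearest line at 3.10.

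CG8799, an ABC transporter gene plotted under its other symbol, had 22.3, 31.0 and 35.7 CPM in Netherlands libraries, against 0.574, 1.64 and 6.81 CPM in the others (3.95 ± 0.11). Tasmania females held the upper end of the other lines, from 3.07 to 6.81 CPM. Gal, a beta-galactosidase, had 40.5, 66 and 107 CPM in Netherlands libraries and 9.15, 16.6 and 26.8 CPM in the others (1.96 ± 0.11). Both genes were without overlap.

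Smaller and very even differences were measured for lft and CG7985. The gene lft, which encodes a protein that binds the cadherins Fat and Dachsous, had 20.2, 22.7 and 31.5 CPM in Netherlands libraries, against 5.70, 10.1 and 15 CPM in the others, and the 4 differences from single lines lay between 1.23 and 1.39. CG7985 had 30.4, 38.5 and 43.6 CPM in Netherlands libraries and 9.28, 14.4 and 19.4 CPM in the others (1.44 ± 0.05). Also without overlap were CG6106 (2.92 ± 0.10) and CG17751 (2.07 ± 0.10), whose largest differences were from Beijing (3.33) and from Ithaca (3.58). CG31091 (3.82 ± 0.30) had 3.98 to 12.6 CPM in Netherlands libraries and reached 6.68 CPM in Zimbabwe females, so its groups overlapped.

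The gene capu, which encodes an actin nucleator needed to polarise the oocyte, was named after its values were seen. It had 97.2, 107 and 130 CPM in Netherlands libraries, against 28.4, 45.9 and 63.0 CPM in the others (1.25 ± 0.04, edgeR adjusted p = 1.25e-31). In virgins its difference was 1.15.

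Among the 12 lower genes with the widest gap were serine protease genes, a drosomycin-like peptide gene, a storage protein gene and a glutathione S-transferase gene. Ser12, a trypsin-like serine protease, had 0, 0.137 and 0.477 CPM in Netherlands libraries, against 4.87, 18.6 and 36.0 CPM in the others. It was near 0 in all 13 libraries and present in all 52, with a difference of -6.51 ± 0.25 (log2, edgeR adjusted p = 8.20e-30). Jon74E, a chymotrypsin-like protease of the Jonah family, had 9.97, 20.4 and 38.2 CPM in Netherlands libraries and 99.2, 412 and 1560 CPM in the others (-4.33 ± 0.19). CG1304, a predicted serine protease, had 0.677, 1.29 and 2.05 CPM in Netherlands libraries and 6.62, 12.5 and 24.8 CPM in the others (-3.39 ± 0.15).

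Drsl5, a drosomycin-like peptide gene, had 0, 0.308 and 0.503 CPM in Netherlands libraries, against 6.87, 22.4 and 104 CPM in the others (-6.21 ± 0.21, edgeR adjusted p = 4.90e-32). Obp56a, an odorant-binding protein gene, had 0.0681, 0.373 and 2.17 CPM in Netherlands libraries and 8.05, 20.1 and 120 CPM in the others (-5.59 ± 0.28). Both were lower in every Netherlands library than in any other.

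Lsp2, which encodes a hexamerin storage protein made by the fat body, had 0.255, 0.622 and 1.38 CPM in Netherlands libraries, against 2.05, 72.5 and 568 CPM in the others. The other lines varied widely among themselves, from 2.05 to 63.8 CPM in Zimbabwe and from 5.75 to 448 CPM in Tasmania females, yet none reached the Netherlands range. The difference was -6.86 ± 0.61 (edgeR adjusted p = 4.50e-14).

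CG13822, named GILT3 in the reference for its likeness to a lysosomal thiol reductase, had 0.426, 0.820 and 1.66 CPM in Netherlands libraries and 4.20, 31.6 and 74.6 CPM in the others (-4.79 ± 0.16). Beijing was the nearest line at -2.81, and the other 3 lines lay between -5.07 and -5.65. CG33346 was at 0.0975, 0.304 and 0.638 CPM in Netherlands libraries and at 2.98, 24.6 and 65.2 CPM in the others (-5.86 ± 0.18), with Ithaca nearest at -3.86. Both genes were without overlap.

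CG44006 had 0.0484 to 0.410 CPM in Netherlands libraries, against 0.814 to 3.38 CPM in the others, with differences from single lines between -3.00 and -3.32. The gene scpr-C had 0.123 to 1.37 CPM in Netherlands libraries and 1.97 to 16.3 CPM in the others (-3.46 ± 0.19). Near-identical copies can share its reads, but scpr-A, scpr-B and scpr-C together summed to 0.311 to 1.64 CPM in Netherlands libraries and 2.62 to 21.4 CPM in the others, still without overlap. CG32751 (-5.87 ± 0.41) overlapped, since its 0 to 0.765 CPM in Netherlands libraries reached the 0.557 CPM of the lowest Tasmania library.

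**Figure D1:**
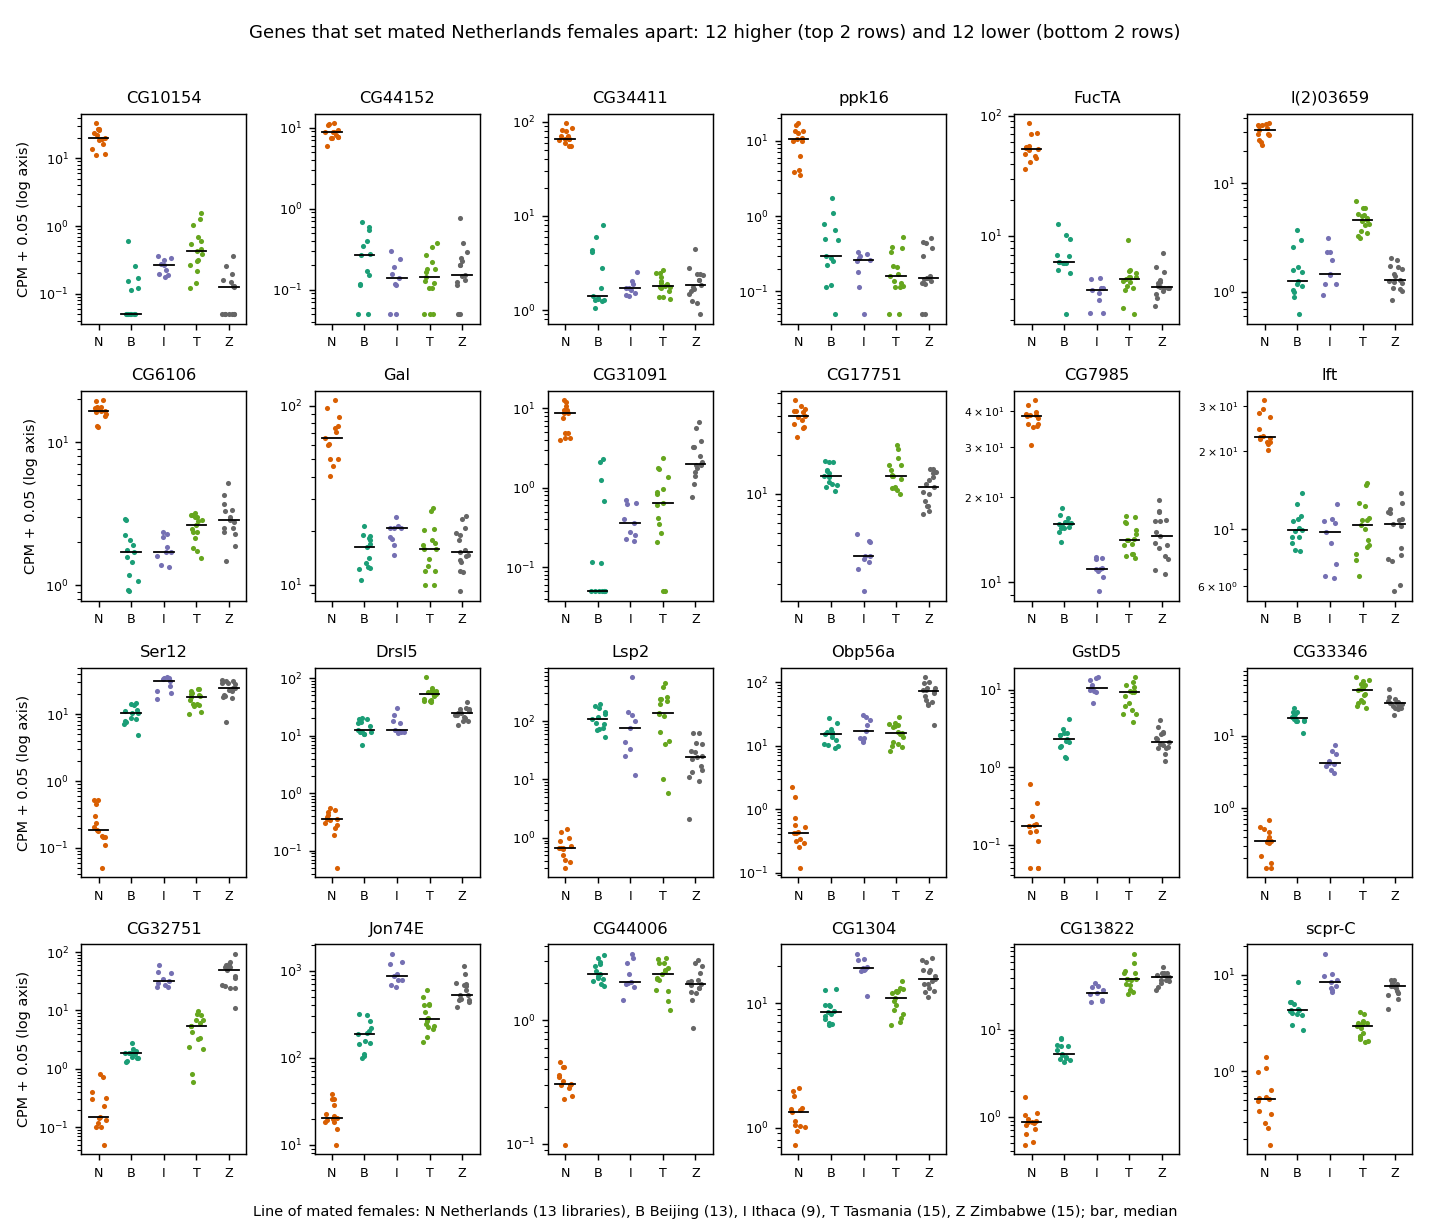
CPM + 0.05 on a log axis in each mated library of the Netherlands (N), Beijing (B), Ithaca (I), Tasmania (T) and Zimbabwe (Z) lines, for the 12 higher (upper rows) and 12 lower genes (lower rows) with the widest gap to the nearest line. Points are libraries and bars are medians; all but CG31091 and CG32751 show no overlap between the 13 Netherlands libraries and the other 52.

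Virgin libraries had no weight in the mated contrast, although they shared the fit's filter, scaling and estimate of spread with it. Netherlands virgins (3 libraries) differed from the mean of the other 4 virgin groups (12 libraries) in 1210 genes (11.3%), with 528 (4.95%) higher and 682 (6.40%) lower. Of the 551 genes set apart in mated females, 549 (99.6%) had the same sign in virgins, against 78.7% of all genes tested. In virgins 364 of them (66.1%) were called with that sign and 0 with the opposite one. All 62 genes without overlap and all 24 genes plotted by library were called with the same sign in virgins.

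Lgr4 (CG34411) had 95.5, 59.1 and 65.9 CPM in the 3 Netherlands virgin libraries and at most 7.81 CPM in the 12 others (5.20). Ser12 had 0.788, 0.196 and 0.174 CPM in Netherlands virgins and at least 11.8 CPM in the others (-5.88). Lsp2 had 4.81, 0.326 and 0.872 CPM in Netherlands virgins and at least 7.78 CPM in the others (-4.99), which again left the groups apart. In these 3 genes the gap between lines was already present without mating.

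The line difference itself was tested for a change with mating, as the mated contrast minus the virgin contrast. edgeR called 0 genes (0.00%), with a smallest adjusted p of 0.212 and 251 genes at an unadjusted p under 0.05, and DESeq2 called 3. With 3 Netherlands virgin libraries, a missed threshold does not show that the differences were equal.

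**Figure D2:**
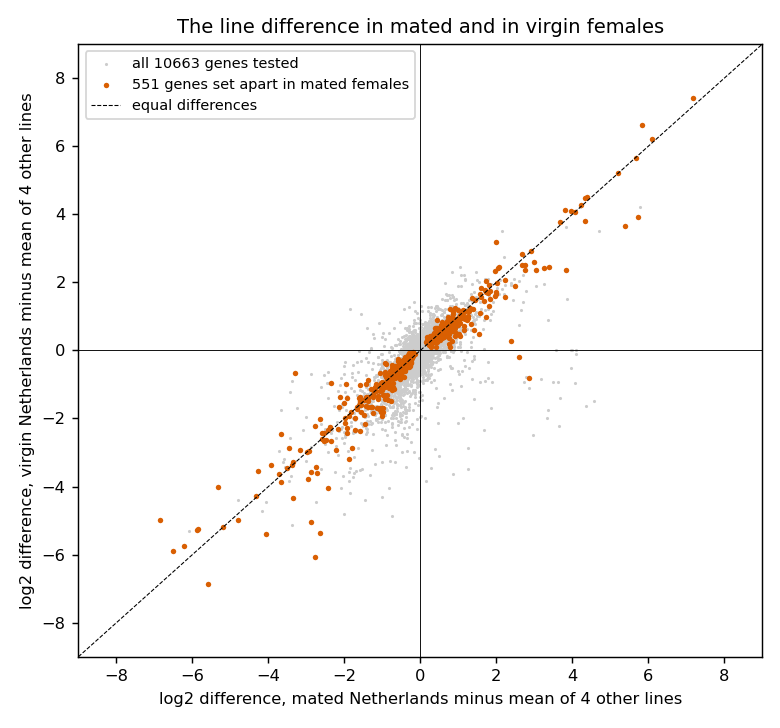
Log2 difference of Netherlands females from the mean of the 4 other lines in mated (x axis) and virgin females (y axis), with each point a gene. Grey points are all 10663 genes tested, orange points the 551 set apart in mated females, of which 549 lie on the same side of 0 on both axes; the dashed line marks equal differences.

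Called UGT genes were mostly lower, while called P450 and GST genes were split. UGTs attach sugars to toxins and other lipophilic compounds. Of 17 UGT genes tested, 12 were lower and 2 higher in Netherlands females, where 17.5% of all genes tested were lower and 16.0% higher, and the median difference was -0.52 against 0.002 over all genes. These shares of all genes are the background of the counts of higher and lower genes in every list that follows. For 2-fold counts the shares of all genes are 2.01% higher and 2.99% lower. For set-apart counts they are 2.28% higher and 2.89% lower. Without the 4 Netherlands libraries of low gene length slope described below, the counts were 12 and 0, and leaving out replicate 1 or replicate 3 of every group gave 7 lower genes. Ugt86Di had 0.195, 0.274 and 0.684 CPM in Netherlands libraries and 0.960, 1.98 and 3.04 CPM in the others, without overlap (-2.43 ± 0.18). Ugt86Dc had 4.11, 6.02 and 9.94 CPM in Netherlands libraries and 4.91, 19.4 and 66.9 CPM in the others (-1.62 ± 0.15), and Zimbabwe was close to it at -0.54. Ugt86Dg (-3.43 ± 0.41) was at most 0.510 CPM in Netherlands libraries, but Beijing females were as low, at most 0.271 CPM. The call of Ugt86Dg was lost without replicate 1 of every group.

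GSTs join glutathione to toxins and products of oxidation. Of 34 tested, 10 were higher and 10 lower, yet of the 7 that differed at least 2-fold, 6 were lower and 1 higher. All 6 were set apart. Of all genes tested, 2.99% were lower at 2-fold and 2.89% were set apart as lower. GstD5 had 0, 0.122 and 0.547 CPM in Netherlands libraries and 1.15, 3.54 and 14.4 CPM in the others (-5.20 ± 0.28, edgeR adjusted p = 1.09e-22). GstD2 had 0.383, 0.684 and 1.51 CPM in Netherlands libraries and 1.32, 10.8 and 29.8 CPM in the others (-3.68 ± 0.24), with the overlap in Zimbabwe females. Since copies of the delta cluster resemble each other, GstD2, GstD4 and GstD5 were also summed, which gave 0.510, 1.01 and 1.59 CPM in Netherlands libraries and 3.75, 16.5 and 42.4 CPM in the others. GstE1, of the epsilon class, had 9.74, 12.2 and 17.2 CPM in Netherlands libraries and 23.9, 54.8 and 89.3 CPM in the others (-1.99 ± 0.08), again without overlap. The 2-fold rise was in GstE11 (1.52 ± 0.10), named after its values were seen.

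Of 79 cytochrome P450 genes, whose products oxidise toxins and hormones, 19 were higher and 21 lower, and the median was -0.04. Cyp6a2, an enzyme known for metabolising insecticides, had 9.85, 15 and 21.9 CPM in Netherlands libraries and 13, 94.3 and 406 CPM in the others (-2.59 ± 0.14). The gap was 4.37 log2 units to Ithaca but only 0.35 to Zimbabwe, whose libraries had 13 to 29.3 CPM. Cyp6a9 was higher by 1.24 ± 0.07 and set apart, with 0.38 against Beijing and Tasmania and 2.25 against Ithaca. Cyp6a20 (1.57 ± 0.09) was not set apart, since Tasmania females had 30.5 to 68.4 CPM beside 40.8 to 70.4 CPM in Netherlands females.

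Digestive genes moved in both directions. Of 30 digestive serine proteases, 13 were lower and 7 higher, with a median of -0.24, which was 0.11 when Ithaca was left out of the mean and 0.07 with the 9 libraries returned. Besides Ser12 and Jon74E, Ser6 was lower without overlap (-2.38 ± 0.16), and it neighbours CG1304. Whole-body RNA does not tell in which tissue Ser12 was expressed, so its place in a digestive list was not tested. Jon65Aii was higher by 3.04 ± 0.20, with 45.4, 62.4 and 123 CPM in Netherlands libraries. The other lines spanned that range, from 0.110 to 1.84 CPM in Tasmania to 73.9 to 171 CPM in Zimbabwe females.

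Of 7 lysozyme genes, whose products cut bacterial cell walls in the gut, 5 were lower and 1 higher, with a median of -1.59. LysB, LysC, LysD and LysE are near-identical, so their reads can be split among them. Their sum was 6.03, 11 and 24.9 CPM in Netherlands libraries. Beijing females were lower still, with 0.386, 1.93 and 4.85 CPM, while the other 3 lines had at least 122 CPM (medians 646 in Ithaca, 242 in Tasmania and 328 in Zimbabwe). The low level was thus shared with Beijing, and LysB was 2.30 higher than in that line while it was lower than the mean (-3.42 ± 0.27). LysD (-4.79 ± 0.29) was not called against Beijing (edgeR adjusted p = 0.136). The 1 higher gene, LysX (2.46 ± 0.19), was lower than in Beijing females by a log2 difference of -1.79. LysP was set apart from all 4 lines (-1.09 ± 0.12).

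The amylase copies Amy-p and Amy-d, which digest starch, differed in opposite directions, with 1.30 ± 0.12 for Amy-p and -2.15 ± 0.17 for Amy-d. Summed, they had 706, 806 and 1200 CPM in Netherlands libraries and 204, 493 and 3060 CPM in the others. The sum in Netherlands females lay inside the range of the other lines, and how reads were divided between the copies in each line was not tested. Amyrel (-1.20 ± 0.29) was lower than in Beijing and Tasmania and higher than in Ithaca (1.31). Its call was lost without Beijing or without Tasmania in the mean (edgeR adjusted p = 0.465 and 0.0929).

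In the immune lists, 3 of 26 antimicrobial peptide genes and 3 of 40 genes of recognition and signalling were set apart, beside 5.17% of all genes tested. Of 26 antimicrobial peptide genes, 4 were higher, Drsl2 (2.71 ± 0.34) among them, and 6 lower. The median was 0.18, and -0.28 to 0.45 under the alternatives. Drsl2 had a median of 0.985 CPM in Netherlands libraries and was not set apart. Its call was lost without replicate 3 of every group. Def (1.41 ± 0.21), the gene of the peptide defensin, was set apart as higher, and Drsl5 and Drsl4 were set apart as lower. Drsl4, next to Drsl5, had 7.72, 12.9 and 30.7 CPM in Netherlands libraries and 18.8, 73.6 and 296 CPM in the others (-2.34 ± 0.18). Of 40 genes of immune recognition and signalling, 13 were lower and 4 higher. PGRP-SC2, which encodes an amidase that breaks down peptidoglycan, had 16.3, 20.5 and 32.5 CPM in Netherlands libraries and 31.1, 57.1 and 177 CPM in the others (-1.44 ± 0.16, edgeR adjusted p = 3.68e-11). The groups touched only at that edge, and PGRP-SC2 was set apart.

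The copies PGRP-SC1a and PGRP-SC1b summed to 1.17 to 3.41 CPM in Netherlands libraries and 0.986 to 68.8 CPM in the others, with the high values in Tasmania females. Of 19 Turandot and JAK-STAT genes, 3 were higher and 3 lower. The stress-induced TotA (1.45 ± 0.30), TotC (1.40 ± 0.37) and TotB (1.18 ± 0.44) were higher than the mean, but all 3 lost the call when Tasmania was left out of it (edgeR adjusted p = 0.0959, 0.341 and 0.394). TotA had 96.2, 317 and 1320 CPM in Netherlands libraries and 181, 562 and 1450 CPM in Beijing libraries.

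Metal-handling genes were mostly lower, and most of these were lower than in every line. Of 17 tested, 10 were lower and 1 higher, with a median of -0.36. Set apart were 7 of the lower genes, where 2.89% of all genes tested were set apart as lower. MtnD and MtnE encode metallothioneins, small proteins that bind copper and zinc. MtnD had 0.363, 1.26 and 3.19 CPM in Netherlands libraries and 5.55, 11.8 and 57.3 CPM in the others, without overlap (-3.34 ± 0.21, edgeR adjusted p = 4.37e-20). MtnE had 0.986, 2.62 and 8.29 CPM in Netherlands libraries and 6.46, 20.7 and 38.0 CPM in the others (-2.71 ± 0.23). Their sum was 1.35 to 11.5 CPM in Netherlands libraries and 12.0 to 88.8 CPM in the others, so the pair was apart in every library, as it was in virgins (1.70 to 2.44 and 10.1 to 46.7 CPM).

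Of the list's iron genes, Tsf1, the main iron carrier of the hemolymph, had 321, 473 and 1300 CPM in Netherlands libraries and 268, 1320 and 7700 CPM in the others (-1.24 ± 0.22, edgeR adjusted p = 8.36e-06). The groups overlapped, although Tsf1 was called against each line. The 2 ferritin subunit genes Fer1HCH (-0.67 ± 0.08) and Fer2LCH (-0.89 ± 0.07), neighbours named after their values were seen, were set apart too. ZnT35C, a zinc transporter, was the gene that was higher (0.51 ± 0.05).

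Fat body and peptide hormone genes were called in both directions. Of 11 fat body genes, 5 were lower and 1 higher. Fst, a gene induced by frost, had 2.76, 7.36 and 13.7 CPM in Netherlands libraries and 3.60, 25.2 and 210 CPM in the others (-2.22 ± 0.36). Of 39 insulin and neuropeptide genes, 9 were lower and 4 higher, with a median of -0.13 that was 0.02 without replicate 3 of every group. Ilp3, an insulin-like peptide of the brain, had 0.272, 0.731 and 1.28 CPM in Netherlands libraries and 0.820, 2.47 and 4.94 CPM in the others (-1.83 ± 0.17, edgeR adjusted p = 1.75e-13). CCHa2, a peptide hormone of gut and fat body, had 10.5, 20.4 and 35.3 CPM in Netherlands libraries and 22.8, 51.9 and 83.7 CPM in the others (-1.26 ± 0.12). Each was called against all 4 lines with some overlap of libraries. Akh, the adipokinetic hormone that mobilises stored energy, was lower by 0.63 on the log2 scale (-0.63 ± 0.09), was set apart and was named after its values were seen.

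**Figure D3:**
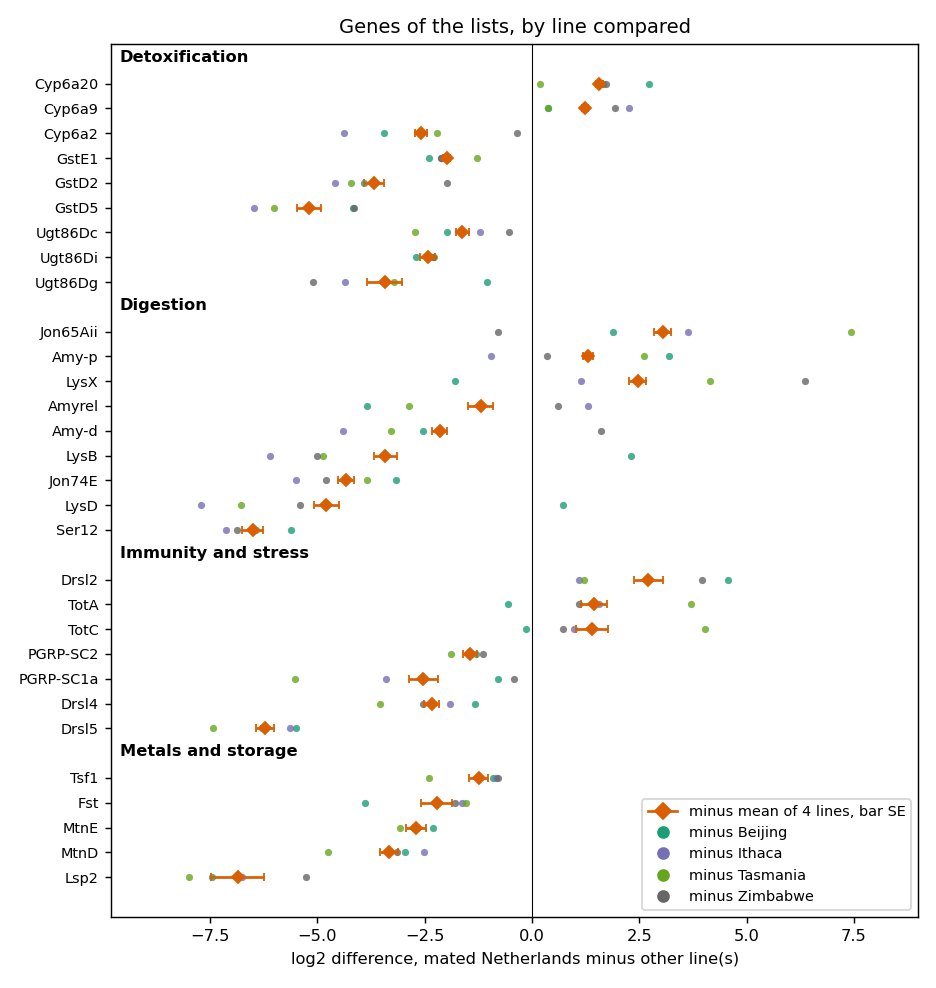
Log2 difference of mated Netherlands females from the mean of the other 4 lines (diamonds, with SE bars) and from each line (dots) for genes of the detoxification, digestion, immunity and stress, and metal and storage lists. Dots of Drsl5, Ser12, Lsp2, GstD5 and MtnD all lie left of 0, while those of LysB, LysD, Amy-d and Jon65Aii lie on both sides.

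Of 29 odorant-binding protein genes, 10 were higher and 5 lower, where 16.0% and 17.5% of all genes were. Of 34 receptor genes, 9 were higher and 5 lower by edgeR and 9 and 8 by DESeq2, and their median of 0.12 turned negative under 5 alternatives, the lowest being -0.12 with no filter on low counts. Obp57c had 36.0, 44.7 and 81.0 CPM in Netherlands libraries and 12.3, 21.9 and 35.8 CPM in the others, narrowly without overlap (1.14 ± 0.09). Obp57a (2.22 ± 0.12) was not set apart, since Beijing females had 47.2 to 86.1 CPM beside 33.2 to 92.7 CPM in Netherlands females. Among receptors, the gustatory receptor gene Gr47b was set apart at low levels, with 0.249 to 1.26 CPM in Netherlands libraries and 0 to 0.311 CPM in the others (1.98 ± 0.24). Gr61a (1.08 ± 0.14) was 4.23 above Zimbabwe and 0.99 above Beijing, had a difference of -0.03 from Tasmania and was lower than Ithaca (-0.87). Without Zimbabwe in the mean, its difference was 0.0314 (edgeR adjusted p = 0.913). Ir76a (-2.52 ± 0.17) was lower than Ithaca (-4.99) and Tasmania (-4.50) but was not called against Beijing or Zimbabwe (edgeR adjusted p = 0.265 and 0.400). Only 34 of the 179 receptor genes in the table had enough counts to be tested. Of 48 cuticle genes tested out of 122, 12 were higher and 5 lower, and of Cpr67Fb (1.81 ± 0.13), Cpr72Ec (1.65 ± 0.13) and Cpr62Ba (2.22 ± 0.17), the third was set apart.

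Reproductive lists differed in how many genes were called, beside 33.5% of all genes. Of 31 yolk and eggshell genes, 1 was higher and 4 lower, with a median of -0.33. The eggshell genes Vm26Ac (1.66 ± 0.24) and Vm32E (-1.40 ± 0.30) were among them, neither of them set apart, while the yolk protein genes Yp1 and Yp2 had differences of 0.01 and 0.03. Of 35 genes of the female germline and the piRNA pathway, which silences transposons, 11 were higher and 2 lower, with a median of 0.12. The piRNA gene aub, set apart, had 97.8, 113 and 126 CPM in Netherlands libraries and 63.4, 81.9 and 116 CPM in the others (0.42 ± 0.04, edgeR adjusted p = 9.21e-12). The groups overlapped through Ithaca females, which reached 116 CPM, and Tasmania females, which reached 109 CPM. Of 30 DNA replication genes, 10 were higher and 1, Mcm7 (-0.26 ± 0.07), was lower, but edgeR called 0 higher when replicate 3 of every group was left out. The call of Mcm7 was lost without replicate 1 of every group (edgeR adjusted p = 0.0572).

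The remaining lists are given by their counts, beside 16.0% of all genes higher and 17.5% lower. Of 24 lipid metabolism genes, 3 were higher and 8 lower, and the predicted lipase gene Lip3 (2.16 ± 0.24) was higher than the mean but lower than Beijing by a log2 difference of -1.30. Of 35 juvenile hormone and ecdysone genes, 3 were higher and 9 lower, and Jheh1, a juvenile hormone epoxide hydrolase gene (-0.85 ± 0.10), differed most from Ithaca (-2.11). Of 14 genes of cuticular hydrocarbon synthesis, 1 was higher and 5 lower, with CG33110 (0.58 ± 0.07) set apart. Of 20 heat shock and chaperone genes, 1 was higher and 5 lower, and Hsc70-2 (-1.65 ± 0.15) was below Zimbabwe and Beijing females but above Ithaca females.

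Of 31 proteasome genes, 0 were higher and 6 lower, none of these at 2-fold, with Rpn6 at -0.15 ± 0.04, and edgeR called 0 lower without replicate 1 of every group. Of 12 hemocyte genes, 3 were higher and 3 lower, among them He (-1.23 ± 0.33). He had 24 counts over the 13 Netherlands libraries. Its call was lost without replicate 3 of every group (edgeR adjusted p = 0.062). Of 12 clock genes, 1 was higher and 3 lower, with jet (-0.27 ± 0.05) lower by little. Of 26 muscle genes, 4 were higher and 1, the flight muscle actin gene Act88F (-1.17 ± 0.40), was lower. The call of Act88F was lost without replicate 1 or replicate 2 of every group (edgeR adjusted p = 0.0523 and 0.146). It was also lost without Zimbabwe in the mean or without crosses to Ithaca males (edgeR adjusted p = 0.111 and 0.0526).

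Most genes of male function had too few counts to be tested. Of 30 testis and sperm genes, 7 could be tested, with 1 higher and 1 lower (topi, -0.49 ± 0.13). The call of topi was lost without replicate 3 of every group (edgeR adjusted p = 0.0959). Of 53 genes listed as seminal fluid genes, 6 could be tested, with 2 higher and 1 lower. Acp1, among the higher ones, is named for adult cuticle protein 1, so its call is not that of a male gene. It had 29.1, 16.5 and 21.6 CPM in the 3 Netherlands virgin libraries. The call of Acp1 was lost without replicate 1 or replicate 2 of every group (edgeR adjusted p = 0.13 and 0.125). Sfp33A3 (-2.41 ± 0.53) had at most 0.185 CPM in Netherlands libraries and 1.51 CPM in the others, and its call was lost without replicate 1 or replicate 2 of every group (edgeR adjusted p = 1 in both). Of 9 genes tested from the list of female reproductive tract proteases, 0 were higher and 1 was lower, CG32751, described above. CG32751 is a gene of vanin-like type, so this call is not that of a protease.

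Calls of ribosomal protein genes changed with 4 Netherlands libraries. In each library the slope of log2 CPM on log2 exon length was computed over genes. It was 0.198 to 0.367 in 4 Netherlands libraries (Netherlands x Netherlands 1 and 2, Netherlands x Tasmania 2 and Netherlands x Zimbabwe 2) and 0.588 to 0.687 in the other 9. A slope under 0.5 was also found in 15 of the other 52 mated libraries. Of 72 mitochondrial ribosomal protein genes, 9 were higher and 1 lower with all 13 libraries, but 4 higher and 11 lower without those 4. Of 88 cytosolic ribosomal protein genes, 4 were higher, with a median of 0.14 that was -0.07 without those libraries. edgeR called 12 of the 88 higher with a replicate block, 59 with the slope as a covariate, 43 without crosses to Ithaca males and 61 of 92 with the 9 libraries returned, but 0 without the 4 libraries. RpL7 (0.33 ± 0.08) lost its call there (edgeR adjusted p = 0.134), whereas mRpL21 (0.63 ± 0.09), set apart, kept it. Of the 551 genes set apart, 397 (72.1%) were set apart without the 4 libraries, where 544 genes met the rule. With the slope as a covariate, all 3575 genes called against the mean and all 551 set apart kept their call and sign.

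**Figure D4:**
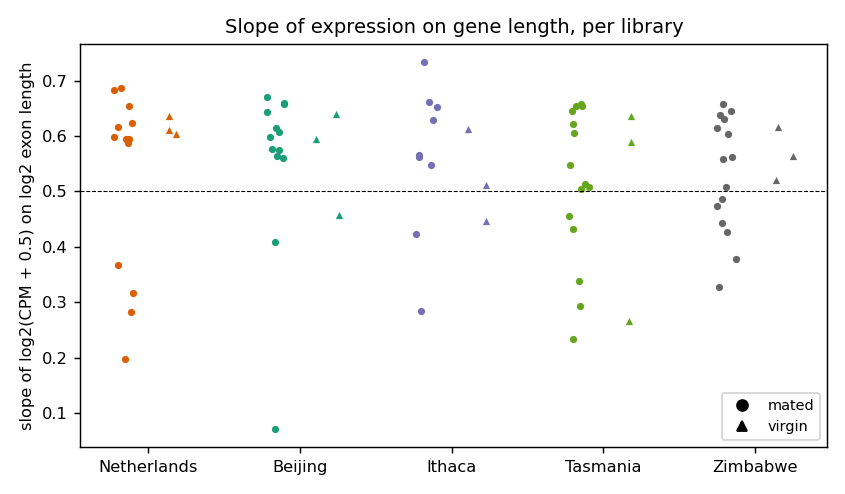
Slope of log2(CPM + 0.5) on log2 exon length over genes, per library, for mated (circles) and virgin females (triangles) of each line. The dashed line marks 0.5, below which lie 4 of 13 mated Netherlands libraries and 15 of 52 others.

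The 13 Netherlands libraries were also compared among themselves by the line of the mate. The F test among the 5 crosses called 6 genes (0.0563%), Sry-alpha, CG34214, CG34137, Kr, CG15382 and CG10035. Sry-alpha, which takes part in forming the first cell layer of the embryo, had 47.1 CPM in Netherlands x Zimbabwe 2 and 12.2 and 1.84 CPM in the other libraries of that cross. It had 10.1, 2.93 and 2.34 CPM with Netherlands males, 6.70, 3.01 and 10.7 CPM with Tasmania males, and 1.55 to 3.51 CPM with Beijing or Ithaca males (edgeR adjusted p = 0.00656). Kr, the gap gene Krüppel of the early embryo, had 8.13 CPM in Netherlands x Zimbabwe 2 and at most 1.83 CPM in the other 12. With a replicate block, Sry-alpha and Kr were called (edgeR adjusted p = 0.0355 and 0.0467) and the other 4 were not (0.126 to 0.134). In a fit of mated libraries alone none of the 6 was called (edgeR adjusted p = 0.0806 to 0.129). Libraries of the same cross were far apart themselves, and Netherlands x Zimbabwe 2 was among the 4 libraries of low slope. Without Netherlands x Zimbabwe 2 the test called 0 genes in edgeR, with 759 at an unadjusted p under 0.05 and an adjusted p of 0.628 for each of the 6.

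Early embryonic transcripts were then summed over 8 genes switched on in the young zygote (nullo, bnk, halo, ftz, eve, sna, twi and tll), a list chosen after seeing the data. The sum was 98.8 CPM in Netherlands x Zimbabwe 2, 24.1 in Netherlands x Netherlands 1, 19.0 in Netherlands x Zimbabwe 3, 15.4 in Netherlands x Tasmania 3 and 8.59 in Netherlands x Tasmania 1. The other 8 Netherlands libraries had 0.246 to 3.42 CPM, and the 3 Netherlands virgins 0.525 to 0.960 CPM. Over 5 CPM were 5 of 13 Netherlands libraries and 2 of the 52 others, whose highest value was 10.5 CPM. halo alone reached 38.0 CPM in Netherlands x Zimbabwe 2 and 0 in every Netherlands virgin library. In the contrast with the mean, the 7 list genes tested had adjusted p of 0.155 to 1 in edgeR, and DESeq2 called 3 of them higher. roX1, an RNA of the male dosage compensation complex that is also made in early embryos, reached 12.8 CPM in Netherlands x Zimbabwe 2 and at most 1.53 CPM in the other lines.

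CG34214 was the gene of the 6 that also counted as set apart (2.59 ± 0.47). It had 29.7 CPM in Netherlands x Zimbabwe 2 and a median of 0.957 CPM in Netherlands libraries, against at most 2.82 CPM in the others. In virgins its difference was -0.19, and its call against the mean was lost without the 4 libraries of low slope, among them Netherlands x Zimbabwe 2 (edgeR adjusted p = 0.0675).

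**Figure D5:**
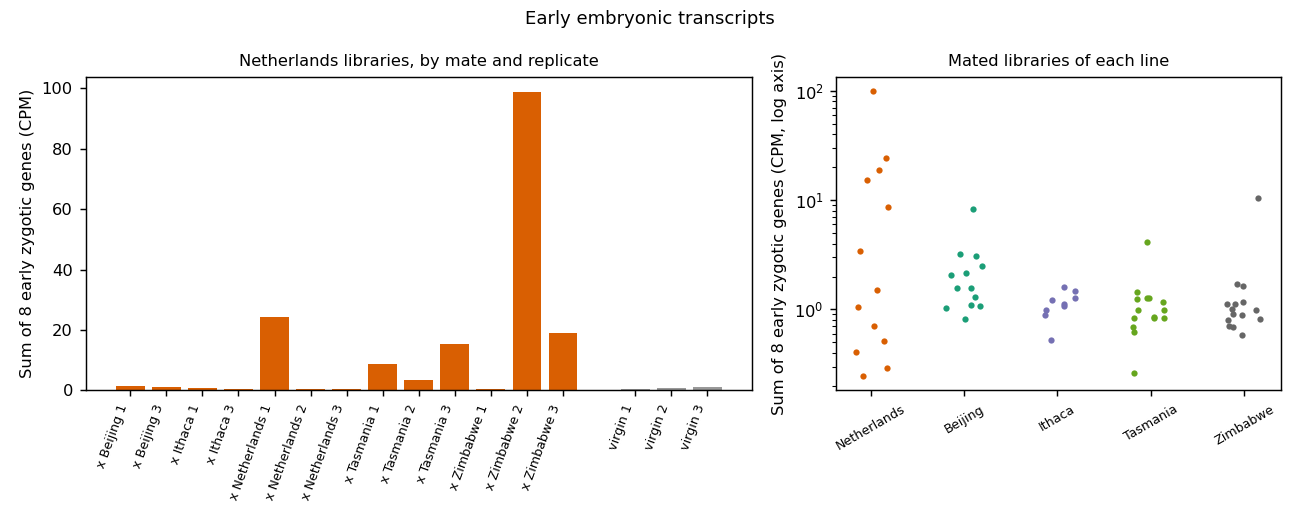
Summed CPM of 8 early zygotic genes in each Netherlands library by mate and replicate (left, linear axis, orange for mated and grey for virgin) and in the mated libraries of each line (right, log axis). Netherlands x Zimbabwe 2 stands at 98.8 CPM, and 5 Netherlands libraries and 2 of the 52 others exceed 5 CPM.

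Genes set apart were spread over all chromosome arms, at 3.66% to 5.47% of the genes tested on an arm. Some lay side by side with a neighbour that moved the same way. In the gene order of the reference annotation, 79 of 545 placed set-apart genes (14.5%) lay in 38 runs of at least 2 neighbours with the same sign, and 6.10% of all tested genes had a neighbour set apart with their own sign. The longest run held 4 genes, GstD2, GstD3, GstD4 and GstD5, all lower. Others were the metallothionein genes MtnD and MtnE, the ferritin genes Fer1HCH and Fer2LCH, the peptide genes Drsl4 and Drsl5, and the proteases Ser6 and CG1304, all lower, and the higher pair ppk11 and ppk16. Reads of overlapping or antisense neighbours cannot be told apart, and differences between lines in how well their reads map to the reference genome were not tested.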

How the data were processed

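RNA of whole females was sequenced as single reads of 100 bases from libraries of a kit that does not mark strand, per the labels' protocols. FastQC, Trimmomatic, TopHat2, HTSeq and the genome build dm3 are named in the submitters' processing notes, while versions, the annotation release and the strand setting are not given in the sources used here. The table that the authors deposited holds unscaled whole-number counts of reads by gene symbol, and columns for 89 of the 90 labelled libraries were used. Rows with a number in place of a symbol (8 of 14522, 0.122% of counts) were left out. A reference of another build gave names, exon lengths and gene order for 14336 genes (98.8%), and no coordinates are given.

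With R 4.3.3 and edgeR 4.0.16, 80 libraries in 29 groups were fitted with 1 mean per group after filterByExpr (10663 genes) and TMM scaling (factors 0.854 to 1.11), by the robust quasi-likelihood test with Benjamini-Hochberg adjustment over all genes tested and a threshold of 0.05. Crosses weighed equally within a line and lines within the mean, and Ithaca rested on 4 crosses. The fit was tested on simulated data. In these, only mated Netherlands libraries were changed, so differences among the other lines or replicate numbers were not simulated. Alternatives were DESeq2 1.42.0 (its size factors and its test), no filter, a replicate block, leaving out replicates, mates, lines or libraries, returning the 9 libraries, fits on mated or virgin libraries, an additive model and the gene length slope as a covariate. The 31 gene lists, the members and the tests were chosen with earlier results of these data known.

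Genes were named by rule, except where stated: the 12 higher and 12 lower set-apart genes with the widest gap to the nearest line and a mean log2 CPM of at least 1; in each list up to 3 members called at 2-fold by smallest p, otherwise 1 called member; and all calls by line of mate, being under 10. Replicates of a group are libraries from different bottles. At the totals per library (4407704 to 38799730), the spread between them sets the precision of genes with many counts. Genes with few counts also carry counting error, such as GstD5 and Ser12, with 23 and 38 counts over the 13 Netherlands libraries.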

Additional observations from a re-analysis of the deposited data

Results flagged for a closer look

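In 10 of 83 named genes, the 9 Ithaca libraries held a value far from its nearest neighbour relative to their range, where chance alone marks about 1 in 20 such groups. Lsp2 was at 568 CPM in Ithaca x Beijing 1 (next 142 CPM). CG1304 was at 11.4 CPM in Ithaca x Tasmania 1, below the next value of 18.2 CPM, and scpr-C was at 16.3 CPM there. TotC was at 819 CPM in Ithaca x Tasmania 2. Jon65Aii at 13.4 CPM and RpL7 at 4280 CPM were highest in Ithaca x Netherlands 2, and Ilp3 at 3.56 CPM and Tsf1 at 3530 CPM in Ithaca x Netherlands 3. The value of aub was 116 CPM in Ithaca x Ithaca 1, and that of CG10035 was 0.453 CPM in Ithaca x Beijing 2. Groups of more than 10 libraries, Netherlands among them, were not examined in this way.

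The Netherlands libraries that were left out also carried signals absent from the 13 used. The 12 lower genes summed to 192 CPM in Netherlands x Beijing 2 and to 1160 CPM in Netherlands x Ithaca 2, against 14.0 to 42.8 CPM in the 13 libraries used and 253 to 1790 CPM in the other lines. Scaled by library totals alone, the testis markers summed to 1670 CPM in Netherlands x Beijing 2, against at most 36.3 CPM in Netherlands virgins.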

How the results depend on the processing

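Over 21 alternatives, none of 83 named genes reversed its difference, 63 kept sign and side of the threshold in each, and so did all 24 genes plotted by library; 19 lost the call and 1 gained it somewhere. Calls against the mean numbered 2070 to 3016 with 1 replicate number left out (3575 with all), 500 to 506 at 2-fold, and set-apart genes 269 to 371. The gene length slope as a covariate gave 869 set-apart genes, 2598 calls in virgins (1210 without it) and 1 call for mated against virgin, where DESeq2 gave 3 and leaving out replicates 0 to 0. Virgin calls were 425 to 1608 with 1 replicate number left out. Calls by line of mate were 0 to 17 with 1 replicate number left out, 0 in mated libraries alone, 1355 with the 9 libraries returned, 1 without the 4 low-slope libraries and 0 without Netherlands x Zimbabwe 2, the last 2 chosen after seeing the data. The returned libraries also moved the higher share of 2-fold calls to 51.7% (40.2% without them), and it was 49.3% with no filter on low counts. Genes tested were 12045 with the returned libraries and 13914 with no filter, against 10663 in the main fit. The cause of these moves was not tested. The labels do not say whether crosses with the same replicate number shared bottles, so the main fit had no term for the number. Not every same-numbered pair deviated together, but some genes followed the number. Act88F had 69.9 to 205 CPM in replicate 3 of the mated Netherlands crosses and 284 to 600 CPM in replicates 1 and 2. A grouping by number is therefore left in the spread of the main fit. Same-numbered Netherlands libraries had a median correlation of 0.12 (lowest -0.34, 22 of 36 pairs over 0.1) and different-numbered ones of -0.08. As a hint from the data of a shared source, 56 of 80 libraries correlated best with their own number. With a replicate block there were 2 calls by line of mate, 4002 against the mean and 632 set-apart genes. The block moved 4 list counts by over 1.5 times. Higher genes were 12 cytosolic ribosomal (without it 4), 16 mitochondrial ribosomal (without it 9) and 3 heat shock genes (without it 1). Lower genes of the reproductive tract protease list were 2 (without it 1). Depth limits genes under about 1 CPM.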
